A study of Mus musculus with 6 samples.

Results

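The 10 genes described here, *H19*, *Igf2*, *Meg3*, *Dlk1*, *Grb10*, *Igf2r*, *Plagl1*, *Peg3*, *Ndn*, and *Mest*, are imprinted genes that control growth. They were chosen by name as a set of imprinted growth regulators, and all 10 were found by symbol among the 26264 genes of the table of normalized counts. An imprinted gene is transcribed mainly from the copy inherited from one parent, because DNA methylation laid down in the egg or the sperm silences or activates the other copy at control regions shared by neighboring genes. Several of these genes form a network in which *Igf2* and *Dlk1* promote growth while *H19*, *Grb10*, *Igf2r*, and *Cdkn1c* restrain it, and the network is turned down in most tissues after birth. In the hematopoietic system, the *H19*-*Igf2* and *Dlk1*-*Meg3* domains are known for their part in the quiescence of hematopoietic stem cells (HSCs) through insulin-like growth factor and mTOR signaling.

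HSCs of WT and *Irf1-/-* mice were profiled by bulk RNA-seq to learn what the loss of the transcription factor IRF1 does to stem cells at steady state. All mice were untreated females of 8 weeks, with 1 bone marrow library from each of 3 WT mice and 3 *Irf1-/-* mice. HSCs were sorted by surface markers as lineage-negative cells that carried Sca1, cKit, and CD150 and lacked CD48. The WT mice were of the C57Bl/6 strain, and the knockout was the germline allele B6.129S2-Irf1 tm1Mak/J, so IRF1 was missing in every cell of the mouse and DNA of the 129 strain that flanks *Irf1* may still differ between the groups. Libraries are named by the replicate numbers 2, 3, and 4 that the labels give in both groups. Between 43138521 and 59658080 reads per library were counted on genes. The amplification kit adds no molecular identifiers, so PCR copies of a molecule were counted as separate reads.

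*Irf1* itself had normalized counts of 9267, 9524, and 9287 in *Irf1-/-* replicates 2, 3, and 4 and of 10122, 11119.6, and 12058 in WT replicates 2, 3, and 4. The 2 genotypes did not overlap, with *Irf1-/-* lower, but reads on the gene were still counted in the knockout, and counts per gene do not show which exons they came from. The log2 fold change was −0.24 (SE 0.0876, adjusted *P* = 0.170, limma). All 10 HSC marker genes examined were above the filter on low values, which does not by itself show the identity of the cells. *Kit* was the most abundant of them, with a WT mean of 82582 ± 1839 normalized counts (SD, *n* = 3). *Cd48*, whose protein was used to gate cells out, had a WT mean of 314 ± 52.3 (SD, *n* = 3), and the hemoglobin genes *Hba-a1* and *Hbb-bs* were listed at 0 in all 6 libraries, although reads shared with their near-identical copies could be lost in counting.

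Expression was compared with limma on log2(normalized count + 1) over the 17404 genes whose normalized counts averaged at least 10. Calls required an absolute log2 fold change above 0.58 together with an adjusted *P* below 0.05. Fold changes are *Irf1-/-* over WT and understate changes of genes with low counts. All 10 imprinted growth genes passed the filter, which was set on the mean over both genotypes. *H19* averaged 8.88 in WT and passed only through its *Irf1-/-* values. Of these, 1 was called higher in *Irf1-/-* HSCs (*Meg3*), where 0.96% of all genes tested were, and 0 were called lower, where 0.954% were. At an unadjusted *P* under 0.05 in limma, 4 were higher (*Meg3*, *Dlk1*, *H19*, and *Igf2r*), as were 8.38% of all genes tested, and 1 was lower (*Igf2*), as were 8.07%. edgeR on the recovered reads called *Meg3* alone and none lower, beside 165 higher and 162 lower among all 17404 genes. DESeq2 called 2 higher (*Meg3* and *Dlk1*) and 0 lower, against 2.21% and 1.56% of the 13522 genes to which it gave an adjusted *P*. It gave none to *H19*, *Plagl1*, and *Mest*, so its count rests on 7 of the 10 genes. The 3 *Irf1-/-* libraries lay entirely above the 3 WT libraries for 3 genes (*H19*, *Meg3*, and *Dlk1*), as for 10.6% of all genes tested, and entirely below for 1 (*Igf2*), as for 9.27%. Fold changes were above 0 for 8 of the genes and below 0 for 2, with a median log2 fold change of 0.18, beside −0.0028 over all genes tested. These directions depended on single mice as well. Without *Irf1-/-* replicate 3, 5 were above 0 and 5 below, without WT replicate 2, 6 were above and 4 below, and the median ranged from 0.0064 to 0.45 over the fits with 1 library left out. The number of genes called over the whole table depended on single mice. Of the 167 called higher, the count became 104 without *Irf1-/-* replicate 2, 83 without *Irf1-/-* replicate 4, 102 without WT replicate 3, and 305 without WT replicate 4. For the 166 called lower, it became 105 without WT replicate 3 and 265 without WT replicate 4. Without the intensity trend of limma, 7 genes were called higher and 33 lower, and neither *Meg3* nor any other gene named below as called was among them.

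**Figure D1:**
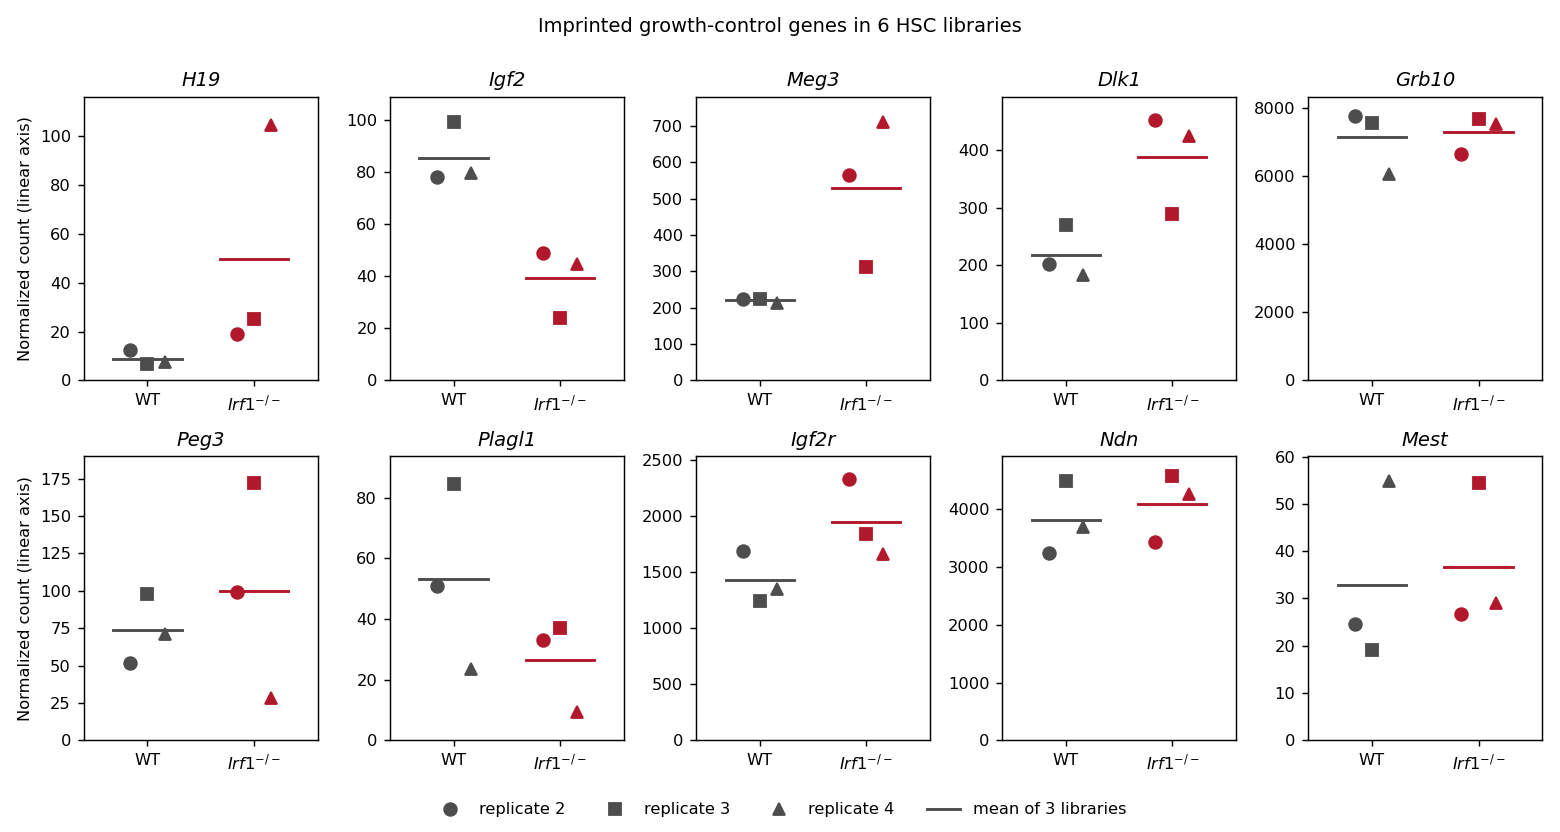
Normalized counts of the 10 imprinted growth genes in each HSC library, on linear axes that start at 0, with WT in gray and *Irf1-/-* in red. Symbols give the replicate number and lines the mean of 3 libraries. *Meg3*, *Dlk1*, and *H19* are higher and *Igf2* is lower in the *Irf1-/-* group with no overlap between the genotypes, and in the other 6 genes the groups overlap.

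*H19* and *Igf2* are neighbors on chromosome 7 that compete for shared enhancers. *H19* is a long noncoding RNA that restrains growth and is read from the maternal copy, while *Igf2* encodes insulin-like growth factor 2 and is read from the paternal copy. *H19* had normalized counts of 12.3, 6.76, and 7.53 in WT replicates 2, 3, and 4 and of 19.2, 25.1, and 105 in *Irf1-/-* replicates 2, 3, and 4. These values stand for 15, 6, and 7 reads in the WT libraries, so the gene was close to the detection limit in WT, and it entered the test only through the *Irf1-/-* group, where it was higher. The groups did not overlap, but *Irf1-/-* replicate 4 was far above the other 5 libraries and *Irf1-/-* replicate 2 was only slightly above the highest WT library. The log2 fold change was 1.99 (SE 0.710, adjusted *P* = 0.162, limma), and without *Irf1-/-* replicate 4 it was 1.26 (adjusted *P* = 0.659, limma, with adjusted *P* from 0.0916 to 0.659 over the alternatives that gave one).

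*Igf2* differed in the other direction. Normalized counts were 78.2, 99.2, and 79.6 in WT replicates 2, 3, and 4 and 49.0, 24.2, and 44.6 in *Irf1-/-* replicates 2, 3, and 4. The genotypes did not overlap, with *Irf1-/-* values below those of WT, and the highest *Irf1-/-* value was that of replicate 2. Means stood at a ratio of 0.459, and *Igf2* was not called in limma (−1.16 on the log2 scale, SE 0.407, adjusted *P* = 0.155). The ratio of *H19* to *Igf2* within a library, which does not depend on how libraries are scaled, was 0.158, 0.0682, and 0.0946 in WT replicates 2, 3, and 4. In *Irf1-/-* replicates 2, 3, and 4, it was 0.391, 1.04, and 2.35. The ratio was above every WT value in all 3 *Irf1-/-* libraries, with geometric means that differed 9.78-fold, 15.5-fold without *Irf1-/-* replicate 2, and 6.33-fold without *Irf1-/-* replicate 4. Since *H19* was higher and *Igf2* lower in all *Irf1-/-* libraries, this separation follows from the 2 genes and is no further evidence. *H19* and *Igf2* were counted from as few as 6 and 28 reads in a library, and counting error is part of their spread. In bulk samples, fewer cells of a type and less RNA per cell cannot be told apart, so these values do not show whether a few cells or all cells of a library carried the RNA.

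*Dlk1* and *Meg3* lie in one domain of chromosome 12. *Dlk1* encodes a membrane protein related to Delta that acts as a noncanonical Notch ligand and is read from the paternal copy, and *Meg3*, also called *Gtl2*, is a long noncoding RNA read from the maternal copy. *Meg3* had normalized counts of 225, 223, and 213 in WT replicates 2, 3, and 4, the closest agreement within a group among the 10 genes. In *Irf1-/-* replicates 2, 3, and 4, it had 565, 312, and 712. The *Irf1-/-* libraries all lay higher than WT and were spread widely, with replicate 4 highest and replicate 3 nearest to WT. In limma, *Meg3* rose by 1.18 on the log2 scale (SE 0.259, adjusted *P* = 0.0245), or 2.40-fold between means. Its call depended on single mice, since it was lost without *Irf1-/-* replicate 2 (log2 fold change 1.09, adjusted *P* = 0.119, limma), without *Irf1-/-* replicate 4 (0.93, adjusted *P* = 0.136), and without WT replicate 3 (1.19, adjusted *P* = 0.0659). It was kept in 12 of 16 alternatives, with adjusted *P* from 4.20e-05 to 0.274.

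*Dlk1* had normalized counts of 202, 269, and 183 in WT replicates 2, 3, and 4 and of 452, 289, and 426 in *Irf1-/-* replicates 2, 3, and 4. The groups did not overlap, but WT replicate 3 and *Irf1-/-* replicate 3 were close to each other. The log2 fold change of 0.82 (SE 0.234) missed the threshold in limma (adjusted *P* = 0.0763). *Dlk1* was called in 2 of 16 alternatives, by DESeq2 (adjusted *P* = 0.00841) and without *Irf1-/-* replicate 3 (log2 fold change 1.03, adjusted *P* = 0.0402, limma), over a range of adjusted *P* from 0.00841 to 0.303. The ratio of *Meg3* to *Dlk1* was 1.12, 0.828, and 1.16 in WT replicates 2, 3, and 4 and 1.25, 1.08, and 1.67 in *Irf1-/-* replicates 2, 3, and 4. The groups overlapped in this ratio (exact two-sided permutation test on log2 ratios, *P* = 0.3, where the lowest that 3 against 3 libraries can give is 0.1).

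The other noncoding RNAs of the domain, *Rian* and *Mirg*, are read from the maternal copy in the same direction as *Meg3*. They were chosen for display after their values were seen. *Rian* had normalized counts of 43.6, 49.6, and 105 in WT replicates 2, 3, and 4 and of 130.1, 52.7, and 94.5 in *Irf1-/-* replicates 2, 3, and 4. The groups overlapped, with WT replicate 4 above both *Irf1-/-* replicates 3 and 4 (limma log2 fold change 0.49, SE 0.441, adjusted *P* = 0.663). *Mirg* was near the filter, between 3.38 and 18.1 normalized counts, and overlapped as well. All 4 tested genes of the domain had fold changes above 0, as did 8628 of all 17404 genes tested. Of the 4, 1 was called, where 0.96% of all genes tested were called higher. Every tested gene was also above 0 in the *Peg13*-*Trappc9* domain (3 genes) and in the *Grb10*, *Peg3*, and *Mest* domains (2 genes each). *Rtl1* and *Dio3*, the other protein-coding genes of the *Dlk1*-*Dio3* domain, were below the filter, and *Dio3* was at 0 in 5 of 6 libraries. The tested genes most like *Meg3* in their pattern over the 6 libraries were *Zfp189* (Pearson *r* = 0.998 on log2 values), *Clip3* (*r* = 0.996), and *Rnf167* (*r* = 0.992), given as a description without a test. None of the 3 was called, and their log2 fold changes were 0.32, 0.39, and 0.17.

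Promoter sequences were matched for 9 of the 10 genes, with 16 start sites (RefSeq, GRCm38.p6). CpG dinucleotides, the sites at which DNA is methylated, are in capitals in the following 300 bases around the starts of *Dlk1* and *Meg3*. These genes of one domain were both higher in all *Irf1-/-* libraries. Whether the bases shown belong to the control region of the domain was not examined. Methylation was not measured in these samples. The *Dlk1* start (chr12:109452573-109452872, plus strand) held 9 CpGs, and the *Meg3* starts held 13 (chr12:109540746-109541045, plus strand) and 1 (chr12:109545148-109545447, plus strand), beside a median of 7 over 32851 promoters of the same length.
Dlk1: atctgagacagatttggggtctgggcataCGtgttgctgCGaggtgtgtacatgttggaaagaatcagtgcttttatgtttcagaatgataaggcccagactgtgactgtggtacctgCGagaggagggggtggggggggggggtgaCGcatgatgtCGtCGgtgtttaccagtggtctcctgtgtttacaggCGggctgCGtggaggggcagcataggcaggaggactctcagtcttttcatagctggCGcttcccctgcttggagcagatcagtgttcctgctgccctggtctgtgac
Meg3, first start: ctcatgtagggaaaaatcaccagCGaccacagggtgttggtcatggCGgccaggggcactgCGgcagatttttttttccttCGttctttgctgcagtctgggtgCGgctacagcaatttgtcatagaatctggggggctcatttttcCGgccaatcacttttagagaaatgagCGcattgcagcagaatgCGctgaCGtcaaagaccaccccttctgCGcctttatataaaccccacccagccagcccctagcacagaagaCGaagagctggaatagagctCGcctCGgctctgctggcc
Meg3, second start: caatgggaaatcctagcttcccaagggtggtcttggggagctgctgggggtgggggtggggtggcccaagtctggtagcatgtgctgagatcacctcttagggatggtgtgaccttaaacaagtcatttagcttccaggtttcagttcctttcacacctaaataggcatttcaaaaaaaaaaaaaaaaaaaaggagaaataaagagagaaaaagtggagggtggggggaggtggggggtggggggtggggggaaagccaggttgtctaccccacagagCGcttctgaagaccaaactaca

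*Igf2r* and *Grb10* act on the receptor side of growth factor signaling and are read from the maternal copy in most mouse tissues. *Igf2r* encodes the receptor that carries IGF2 to lysosomes for degradation. It had normalized counts of 1686, 1244, and 1350.1 in WT replicates 2, 3, and 4 and of 2334, 1835, and 1663 in *Irf1-/-* replicates 2, 3, and 4. The groups overlapped narrowly, since WT replicate 2 was just above *Irf1-/-* replicate 4. The log2 fold change was 0.44 (SE 0.145, adjusted *P* = 0.125, limma), and it was below the fold threshold in the main comparison. In DESeq2 (adjusted *P* = 0.0399) and with the replicate block (adjusted *P* = 0.0310, limma), *Igf2r* passed the adjusted *P* but not the fold threshold. *Airn*, the antisense RNA that silences the paternal copy of *Igf2r*, was between 62.2 and 105 normalized counts (log2 fold change 0.25, adjusted *P* = 0.815, limma). Because counting is not stated to use strand, reads of *Airn* and *Igf2r* where they overlap could not be told apart.

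*Grb10* encodes an adaptor that binds the insulin and IGF1 receptors and dampens their signaling. It had 7776, 7567, and 6072 normalized counts in WT replicates 2, 3, and 4 and 6657, 7672, and 7515 in *Irf1-/-* replicates 2, 3, and 4. The groups overlapped throughout. The log2 fold change was 0.03 (SE 0.105, 95% interval −0.19 to 0.26, adjusted *P* = 0.928, limma), and it turned below 0 without *Irf1-/-* replicate 3 (−0.0046) or WT replicate 4 (−0.078). Of these 10 genes, *Grb10* and *Ndn* had the most reads, so their narrow intervals rest on at least 5644 and 3220 reads per library.

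The wider IGF and insulin pathway was followed with 33 genes, of which 28 were tested and 0 were called in either direction by limma, edgeR, or DESeq2. At an unadjusted *P* under 0.05 in limma, 5 were higher (*Igf2r*, *Irs2*, *Pik3ca*, *Pik3r1*, and *Grb14*) and 1 was lower (*Igf2*), beside 8.38% and 8.07% of all genes tested. *Grb14*, with a mean of 5.21 in WT, passed the filter only through its *Irf1-/-* values. The median log2 fold change of the list was 0.02. Its most abundant genes were the kinases *Akt1* and *Akt2*, which carry the signal inside the cell, and *Igfbp4*, a secreted protein that binds IGFs. *Igfbp4* had a WT mean of 13354 ± 757 and an *Irf1-/-* mean of 13183 ± 1512 normalized counts (SD, *n* = 3), and *Akt1* had 31172 ± 2277 and 30729 ± 1481 (SD, *n* = 3). The mean of *Akt2* was 14323 ± 1288 in WT and 14446 ± 1022 in *Irf1-/-* HSCs (SD, *n* = 3). These 3 genes were close to equal between the genotypes, with log2 fold changes of −0.02 for *Igfbp4*, −0.02 for *Akt1*, and 0.01 for *Akt2*.

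The remaining 4 genes are read from the paternal copy and were not called. *Plagl1*, also called *Zac1*, encodes a zinc-finger factor that regulates other genes of the imprinted network, including *H19* and *Igf2*. It had normalized counts of 51.0, 84.5, and 23.7 in WT replicates 2, 3, and 4 and of 33.0, 37.2, and 9.34 in *Irf1-/-* replicates 2, 3, and 4. Replicate 4 was the lowest in both groups, and WT replicate 4 lay inside the *Irf1-/-* range. Means were 53.1 ± 30.5 in WT and 26.5 ± 15.0 in *Irf1-/-* HSCs (SD, *n* = 3), but the 95% interval of the log2 fold change of −1.01 reached from −2.35 to 0.33 (adjusted *P* = 0.484, limma). Without *Irf1-/-* replicate 4 the log2 fold change was −0.41, and without WT replicate 3 it was −0.59.

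*Peg3*, another zinc-finger gene, had normalized counts of 51.8, 98.0, and 71.0 in WT replicates 2, 3, and 4 and of 99.1, 172, and 28.0 in *Irf1-/-* replicates 2, 3, and 4. Both the highest and the lowest library of this gene were *Irf1-/-*, and the fold change (log2 0.14, SE 0.543, adjusted *P* = 0.945, limma) turned below 0 without *Irf1-/-* replicate 2 (−0.028) or 3 (−0.42), without WT replicate 2 (−0.087), and under quantile normalization (−0.011). *Mest*, which encodes an enzyme-like protein of the endoplasmic reticulum, lay between 19.2 and 54.9 normalized counts in WT and between 26.7 and 54.4 in *Irf1-/-* HSCs. *Ndn* encodes necdin, a growth suppressor known in quiescent HSCs. It had normalized counts of 3253, 4486, and 3699.7 in WT replicates 2, 3, and 4 and of 3433, 4575, and 4263 in *Irf1-/-* replicates 2, 3, and 4. The ranges nearly coincided, with the lowest value in replicate 2 and the highest in replicate 3 of both groups. The log2 fold changes were 0.22 for *Mest* (SE 0.544, adjusted *P* = 0.905) and 0.10 for *Ndn* (SE 0.129, adjusted *P* = 0.779, limma). *Mest* turned below 0 without *Irf1-/-* replicate 3 (−0.090) or WT replicate 3 (−0.079), as did *Ndn* without WT replicate 2 (−0.0048).

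To compare levels between genes, normalized counts were divided by merged exon length (GENCODE vM1, available for all 10 genes and for 83.5% of the genes tested). Per kilobase and over the 6 libraries, *Ndn* was the highest at 2392 ± 342, followed by *Grb10* at 787 ± 74.9 and *Igf2r* at 179 ± 41.0 (SD over 6 libraries). On this per-kilobase scale, *Ndn* was above 89.6% of the genes tested, *Grb10* above 69.9%, and *Igf2r* above 44.1%. *Dlk1* came next at 53.6 ± 19.9 per kilobase, and the ranges of *Ndn*, *Grb10*, and *Igf2r* did not overlap with the next gene in order. *Meg3* followed at 20.7 ± 11.7 per kilobase, and its range overlapped with that of *Dlk1*, although *Dlk1* was higher in each of the 6 libraries. Below it, *H19* (12.3 ± 15.9), *Igf2* (11.4 ± 5.05), *Mest* (8.84 ± 3.99), *Peg3* (6.51 ± 3.75), and *Plagl1* (5.46 ± 3.56) had levels per kilobase whose ranges overlapped with each neighbor in the order. This order pools the genotypes. In WT alone, *H19* was the lowest of the 10 at 3.74 ± 1.28 per kilobase (SD, *n* = 3), *Igf2* was above *Meg3* in all 3 libraries (15.6 ± 2.14 and 12.2 ± 0.366), and *Plagl1* had a higher mean than *Peg3* (7.28 ± 4.18 and 5.53 ± 1.74). Per kilobase, *H19* was below *Igf2* in all 3 WT libraries and above it in *Irf1-/-* replicates 3 and 4.

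No single library was extreme for all 10 genes. *Irf1-/-* replicate 4 was the highest library for *H19* and *Meg3* and the lowest for *Peg3* and *Plagl1*. *Irf1-/-* replicate 2 was the highest for *Dlk1* and *Igf2r*, and *Irf1-/-* replicate 3 was the highest for *Peg3* and *Ndn* and the lowest for *Igf2*. In WT, replicate 3 was the highest for *Igf2* and *Plagl1* and the lowest for *H19*, *Igf2r*, and *Mest*. WT replicate 4 was the highest for *Mest* and the lowest for *Meg3*, *Dlk1*, and *Grb10*, and WT replicate 2 was the highest for *Grb10* and the lowest for *Ndn*.

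A wider list of 71 imprinted genes was grouped by domain. Of these, 69 were in the table and 52 were tested, with 1 called higher (*Meg3*) and 1 called lower (*Slc22a3*), where 0.96% and 0.954% of all genes tested were. Without the 10 growth genes, 42 were tested, 0 were called higher, and 1 was called lower, with a median log2 fold change of 0.05. Of those 42, *Osbpl5* and *Cdkn1c* were higher and *Slc22a3* was lower at an unadjusted *P* under 0.05 in limma, beside 8.38% and 8.07% of all genes tested. edgeR and DESeq2 also called 0 higher and *Slc22a3* lower. Without *Irf1-/-* replicate 2, 1 of the 42 was called higher (*Osbpl5*), and without WT replicate 3, 0 were called lower. *Slc22a3* encodes an organic cation transporter and belongs to the *Igf2r* domain on chromosome 17. There were 6619.5, 9105, and 6479 normalized counts in WT replicates 2, 3, and 4 and 4605, 4586, and 4815 in *Irf1-/-* replicates 2, 3, and 4. The 3 *Irf1-/-* values lay close together and below all WT values. *Slc22a3* fell by 0.65 on the log2 scale (SE 0.118, adjusted *P* = 0.00855, limma), while its domain neighbor *Igf2r* had a fold change above 0. Without WT replicate 3, the log2 fold change of *Slc22a3* was −0.49 and below the fold threshold (adjusted *P* = 0.0171, limma, with a range from 1.06e-05 to 0.247 over 16 alternatives).

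*Osbpl5* of the *Kcnq1* domain passed the adjusted *P* but not the fold threshold and was singled out after its values were seen (limma log2 fold change 0.54, SE 0.114, adjusted *P* = 0.0208). Its *Irf1-/-* libraries, at 1609, 1664, and 1954 normalized counts, were all above the WT libraries at 1234, 1163, and 1193. *Cdkn1c* of the same domain encodes the cell cycle inhibitor p57, a gene of HSC quiescence. It had normalized counts of 3078, 2699, and 2901 in WT replicates 2, 3, and 4 and of 3157, 3589, and 3332 in *Irf1-/-* replicates 2, 3, and 4. All *Irf1-/-* libraries were above all WT libraries by a small margin, and *Cdkn1c* was not called in limma (log2 fold change 0.22, SE 0.0961, adjusted *P* = 0.280). The most abundant imprinted genes were *Gnas*, *Tspan32*, and *Cd81*, with log2 fold changes of −0.13, −0.14, and −0.02.

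**Figure D2:**
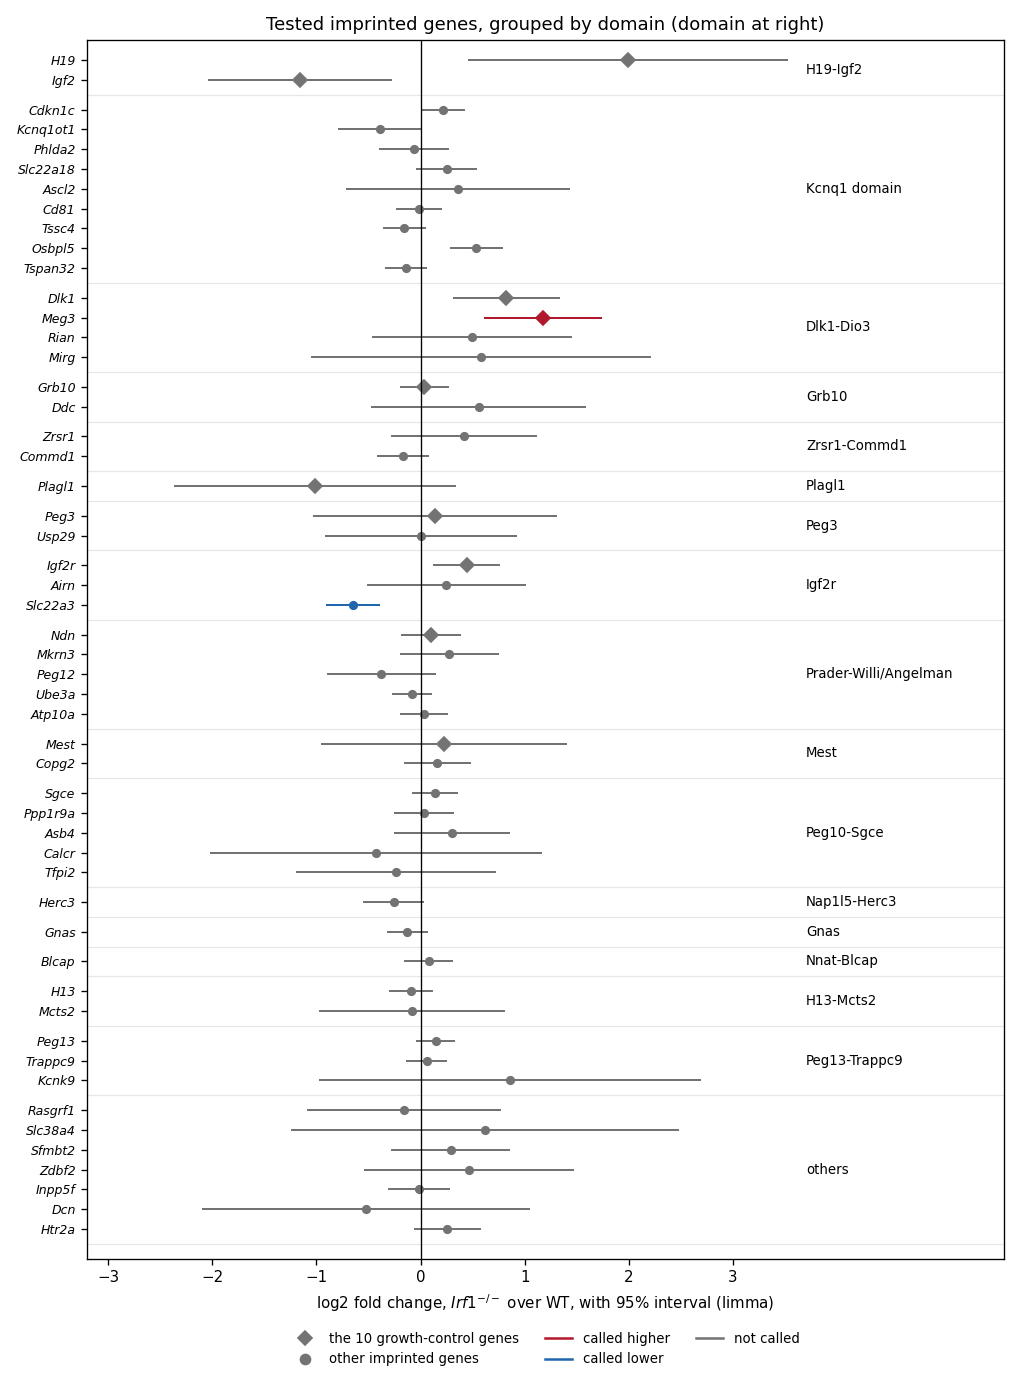
Log2 fold changes (*Irf1-/-* over WT, *n* = 3 each) of the 52 tested imprinted genes with 95% intervals from limma, grouped by domain. Diamonds are the 10 growth genes and circles the others. Only *Meg3* (red) was called higher and *Slc22a3* (blue) lower. All 4 tested genes of the *Dlk1*-*Dio3* domain lie above 0, as do all 3 of the *Peg13*-*Trappc9* domain.

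Genes with roles near those of *Dlk1* or in keeping imprints were examined as lists. Of 14 tested Notch and Delta-like genes, *Dlk1* itself among them, 1 was called higher and 0 were called lower. At an unadjusted *P* under 0.05 in limma, 6 were higher (*Dlk1*, *Dll3*, *Dll4*, *Maml1*, *Notch1*, and *Notch3*) and 1 was lower (*Dll1*), beside 8.38% and 8.07% of all genes tested. The called gene was *Dll4*, a canonical Notch ligand, with 127, 124, and 166 normalized counts in WT replicates 2, 3, and 4 and 253, 339.6, and 299 in *Irf1-/-* replicates 2, 3, and 4. The groups were well separated, and in limma the log2 fold change reached 1.09 (SE 0.237, adjusted *P* = 0.0228). This call was nevertheless lost without *Irf1-/-* replicate 3 (adjusted *P* = 0.0756), without *Irf1-/-* replicate 4 (adjusted *P* = 0.105), without WT replicate 2 (adjusted *P* = 0.0693), and without WT replicate 3 (adjusted *P* = 0.0834), where log2 fold changes were between 0.99 and 1.08. Over 16 alternatives, the adjusted *P* of *Dll4* ranged from 0.000215 to 0.125. edgeR also called *Dll4* alone, and DESeq2 called *Dll4* and *Dlk1*. The most abundant genes of the list, *Notch2*, *Rbpj*, and *Jag2*, had log2 fold changes of −0.02, 0.03, and 0.15.

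Among 16 tested genes that maintain or erase imprints, 0 were called by limma, edgeR, or DESeq2, and at an unadjusted *P* under 0.05 in limma 0 were higher and 3 were lower (8.38% and 8.07% of all genes tested). Those 3 were *Dnmt1* and *Uhrf1*, which copy methylation to new DNA strands, and *Tet1*, which oxidizes methylated cytosine. *Uhrf1* had normalized counts of 17202, 19511, and 13408 in WT replicates 2, 3, and 4 and of 13376, 11890.5, and 10252 in *Irf1-/-* replicates 2, 3, and 4. The groups met without overlapping (limma log2 fold change −0.49, SE 0.130, adjusted *P* = 0.0609), and *Dnmt1* was likewise lower in all *Irf1-/-* libraries (log2 fold change −0.34, SE 0.107, adjusted *P* = 0.106, limma). *Trim28*, a corepressor that guards imprints, had a log2 fold change of −0.12.

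Of 15 proliferation genes, 0 were called higher and 3 fell, namely *Mki67* (log2 fold change −0.67, adjusted *P* = 0.0427), *Top2a* (−0.77, adjusted *P* = 0.0177), and *Aurkb* (−0.63, adjusted *P* = 0.0368, limma). At an unadjusted *P* under 0.05, 12 of the 15 were lower and 2 were higher (*Cdkn1a* and *Cdkn1c*), where 8.07% and 8.38% of all genes tested were. Those 2 are cell cycle inhibitors, as is *Cdkn1b*, the remaining gene of the list (log2 fold change 0.04). edgeR called the same 3 genes lower, and DESeq2 called these 3 lower and *Cdkn1a* higher. Without *Irf1-/-* replicate 4, WT replicate 2, or WT replicate 3, each of the 3 calls was lost. Log2 fold changes in these fits were −0.47, −0.56, and −0.64 for *Mki67*, −0.55, −0.69, and −0.71 for *Top2a*, and −0.44, −0.58, and −0.57 for *Aurkb*. *Mki67* was also not called without *Irf1-/-* replicate 2 (−0.69), nor *Aurkb* without *Irf1-/-* replicate 3 (−0.69). The most abundant genes of this list, *Mcm3*, *Mcm2*, and *Mcm5* of the replication helicase, had log2 fold changes of −0.38, −0.44, and −0.52. The part of proliferation in the values of the imprinted genes was not tested.

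Of 52 tested marker genes of HSCs and other cell types, 2 were called higher (*Fgd5* and *Flt3*) and 4 lower (*Klf1*, *Car1*, *Pf4*, and *Gp1bb*), beside 0.96% and 0.954% of all genes tested. At an unadjusted *P* under 0.05 in limma, 13 were higher and 7 were lower, beside 8.38% and 8.07% of all genes tested. *Fgd5*, which marks HSCs, had a log2 fold change of 0.83 and *Flt3*, which marks later progenitors, of 0.67. The HSC markers *Procr* and *Ly6a*, which encodes Sca1, passed the adjusted *P* but not the fold threshold and in opposite directions (log2 fold changes 0.52, adjusted *P* = 0.0112, and −0.43, adjusted *P* = 0.0245, limma). Fold changes were above 0 for 8 of the 10 HSC markers and below 0 for 2, with a median log2 fold change of 0.24. The *Irf1-/-* libraries lay entirely above WT for 4 HSC markers and entirely below for 1, as for 10.6% and 9.27% of all genes tested. The genes called lower had log2 fold changes of −0.72 (*Klf1*), −3.51 (*Car1*), −1.11 (*Pf4*), and −0.90 (*Gp1bb*), and no cell type is read from them. edgeR and DESeq2 made the same calls except for *Car1*, which neither called. The calls of *Flt3*, *Klf1*, and *Car1* depended on single mice. *Flt3* was not called without *Irf1-/-* replicate 2 (0.74), 3 (0.55), or 4 (0.73), nor when WT replicate 3 was left out (0.45). *Klf1* was lost with *Irf1-/-* replicate 2 (−0.83) or 3 (−0.50) removed, and also with WT replicate 2 (−0.66) or 3 (−0.72) removed. *Car1* was lost with *Irf1-/-* replicate 3 (−2.60) or 4 (−3.16) removed, and with *Irf1-/-* replicate 2 removed it was called at −4.77.

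*H19*, *Igf2*, *Dlk1*, and *Meg3* are also known in stromal and endothelial cells, so the markers of both were summed in each library, although a sort for cKit is meant to leave stromal cells out. The 8 stromal markers summed to 2161, 2789, and 2655 normalized counts in WT replicates 2, 3, and 4 and to 3762, 2999, and 3823 in *Irf1-/-* replicates 2, 3, and 4. The 5 endothelial markers summed to 10845, 10767, and 9838 in WT replicates 2, 3, and 4 and to 13155, 13009.5, and 13614 in *Irf1-/-* replicates 2, 3, and 4. Both sums were higher in all *Irf1-/-* libraries, but limma, edgeR, and DESeq2 called 0 genes of either set. At an unadjusted *P* under 0.05 in limma, 3 stromal markers (*Col1a2*, *Col3a1*, and *Pdgfrb*) and 3 endothelial markers (*Kdr*, *Emcn*, and *Tek*) were higher, as were 8.38% of all genes tested, and none was lower. Fold changes were above 0 for 6 of the 8 stromal and 4 of the 5 endothelial markers, with median log2 fold changes of 0.50 and 0.52. They were below 0 for 2 stromal markers (*Lepr*, −0.62, and *Dcn*, −0.52) and 1 endothelial marker (*Plvap*, −0.12). *Emcn* missed only the fold threshold (log2 fold change 0.576, adjusted *P* = 0.0101, limma). None of these markers was at 0 in all libraries. *Pdgfrb* was the most abundant stromal marker and *Tek* the most abundant endothelial one, and HSCs are known to express *Tek*. The stromal gene *Col1a1* lay between 22.2 and 59.6 normalized counts and the endothelial gene *Cdh5* between 4.11 and 29.0. The groups overlapped in both. For 1 of the 8 stromal and 2 of the 5 endothelial markers, the *Irf1-/-* libraries lay entirely above WT, as for 10.6% of all genes tested. Among the other marker sets, the erythroid sum was lower in all *Irf1-/-* libraries (3107 ± 729 in WT and 1157 ± 557 in *Irf1-/-* HSCs, SD, *n* = 3). The megakaryocyte sum was lower in all of them as well (50929.5 ± 8191 and 33628 ± 8014), and the later progenitor sum was higher (19166 ± 1151 and 22612 ± 3147). In the remaining sets, the genotypes overlapped. The part of stromal or endothelial RNA, or of RNA of these other cell types, in the values of the imprinted genes was not tested.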

How the data were processed

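Amplification used SMART-Seq v4 reagents and library preparation Nextera XT. Trim Galore (trimming), HISAT2 (alignment), and Htseq-count (reads per gene) were run by the authors. The submitters' processing notes name the build mm39, and the strand setting and versions are not given in the sources used here. The values the authors deposited are a signal in normalized counts, derived from read counts with the DESeq2 size factors of the libraries. Dividing each column by the estimated value of 1 read gave whole reads for 100% of values (tolerance 0.05 reads), so reads were recovered.

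Genotypes were taken from the labels. limma 3.58.1 in R 4.3.3 (intensity trend) was fitted to log2(normalized count + 1) of all genes with a mean of at least 10, with Benjamini-Hochberg adjustment over 17404 genes. edgeR 4.0.16 and DESeq2 1.42.0 on the recovered reads were alternatives, as were other pseudocounts, filters, and scalings, no intensity trend, no fold limit, a replicate block, and each library left out. The tests were checked on simulated data, with changes added only to genes whose mean counts were above those of *H19*, *Plagl1*, and *Mest*. That check does not cover genes with counts as low as theirs. Libraries of a genotype differed by more than random sampling of reads gives (chi-square per gene from 16.2 to 29.8). PCR copies counted as reads can add to this measure, so it does not show how far the mice differ.

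The members and lists were chosen with earlier results of these data known. Genes named are the 10 members, *Irf1*, called genes and the 3 most abundant genes of each list (the most abundant alone for cell type markers), and the 3 genes most correlated with a called member. Genes named outside this rule were chosen after their values were seen, including those that complete a count. The lists were imprinted genes by domain, IGF and insulin signaling, Notch and Delta-like genes, imprint maintenance, proliferation, and cell type markers. Chromosomes and promoters came from RefSeq (GRCm38.p6) and lengths from GENCODE vM1 by symbol. Because the build differs, they were used only for names, chromosomes, lengths, and the positions and sequences of promoters.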

Additional observations from a re-analysis of the deposited data

How the results depend on the processing

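Without the intensity trend, limma called 7 genes higher and 33 lower and 0 members higher. DESeq2 called 299 genes and 2 members higher, and without the fold limit 301 genes were higher and 260 lower, since that limit removes calls. With each library left out in turn, genes called higher ranged from 83 to 305, genes called lower from 105 to 265, and members called higher from 0 to 2. No member was called lower in any alternative. The cause of these shifts was not tested.

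Fold changes reversed for *Peg3* under quantile normalization (−0.011). With single libraries left out, log2 fold changes ranged from −0.42 to 0.87 for *Peg3*, where those below 0 were −0.028, −0.42, and −0.087, from −0.078 to 0.10 for *Grb10* (below 0 at −0.0046 and −0.078), from −0.0048 to 0.23 for *Ndn*, and from −0.090 to 0.66 for *Mest* (below 0 at −0.090 and −0.079). The cause was not tested. *H19*, *Igf2*, *Meg3*, *Dlk1*, *Plagl1*, and *Igf2r* kept their direction in every alternative in which they were tested.

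With the replicate number as a block, 219 genes were called higher and 196 lower, and 1 member was called higher and 0 lower. Deviations of same-numbered libraries correlated at −0.094 (replicate 2), 0.246 (replicate 3), and 0.147 (replicate 4). *Irf1-/-* replicates 3 and 4 correlated best with their own number and replicate 2 did not, so these values do not establish a pairing.

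*H19*, *Plagl1*, and *Mest* were counted with as few as 6, 9, and 17 reads in a library, which limits what can be detected for them. With 3 mice per genotype, an exact test cannot go below 0.1. The counts do not separate parental alleles, and reads of overlapping or antisense genes could not be told apart.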

Other observations

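The counts do not show which parental copy was read, but the 10 genes can be grouped by the copy that textbooks give as active in most mouse tissues. This grouping was made after the values were seen and was not tested. It covers only the 10 genes. Of the 42 other imprinted genes tested, 24 had fold changes above 0 and 18 below, and *Slc22a3* was called lower. These 42 were not grouped by copy. All 4 genes read from the maternal copy (*H19*, *Meg3*, *Grb10*, and *Igf2r*) had fold changes above 0, with a median log2 fold change of 0.81 and a range from 0.03 to 1.99. The top of that range is *H19*, which passed the filter only through its *Irf1-/-* values. Without *H19*, the middle value is that of *Igf2r* (0.44). Of the 6 genes read from the paternal copy, 4 had fold changes above 0 (*Dlk1*, *Peg3*, *Ndn*, and *Mest*) and 2 below 0 (*Igf2* and *Plagl1*), with a median of 0.12 and a range from −1.16 to 0.82. *Grb10*, *Peg3*, *Ndn*, and *Mest* each turned below 0 in at least 1 fit with a single library left out, so without *Irf1-/-* replicate 3 the genes above 0 were 3 of 4 and 2 of 6. Only *Meg3* was called among the 10 in limma.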
